A study of Mus musculus with 36 samples.

Results

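The potassium channel genes of the mouse dorsal vagal complex were described in 36 RNA-seq libraries. Members were all genes of the deposited table whose symbol starts with Kcn, goes on with lower-case letters and ends in a number. There were 86 such genes of 24344 in the table, after 3 further matching genes (Kcnj8, Kcnj13 and Kcnmb3) had been left out by the rule. They comprised 40 voltage-gated alpha subunits (Kcna to Kcnv), 10 auxiliary subunits of voltage-gated channels (Kcnab, Kcne and Kcnip), 12 inward rectifiers (Kcnj), 13 two-pore channels (Kcnk) and 11 calcium- and sodium-activated subunits (Kcnma, Kcnmb, Kcnn, Kcnt and Kcnu). Of these, 83 had enough reads to be tested. The other 3 were Kcna7, Kcna10 and Kcne1, which held at most 0.105, 0.253 and 0.377 CPM (read counts divided by the scaled library size in mega-reads) in any library.

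Potassium channels let potassium ions leave the cell and so set its resting potential and end its action potentials. Voltage-gated channels open on depolarization, inward rectifiers pass current best near rest, two-pore channels carry a standing leak current, and calcium- and sodium-activated channels link firing to the ions that enter during it. In the dorsal vagal complex (the nucleus of the solitary tract together with the motor nucleus that gives rise to the vagus), such channels shape the firing of neurons that receive signals from the gut and send commands back to it. Astrocytes also take up potassium from the extracellular space through inward rectifiers.

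All mice were labelled wild type with no drug treatment, and the groups differed in strain, diet and sex. C57BL/6J is the standard inbred reference, NZO/HlLtJ is prone to obesity and diabetes, and CAST/EiJ descends from wild Mus castaneus mice. Each strain was fed a control diet with 10% fat and fiber or a high fat, high sugar diet with 44% fat and fiber (HFHS) from 6 weeks of age, and tissue was taken at 15 weeks. There were 3 libraries for each strain, diet and sex, so 6 per strain and diet. The labels do not say that each library came from a separate animal, so p-values measure only the spread between libraries, which may be partly technical. In bulk tissue, fewer cells of a type and less RNA per cell cannot be told apart.

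Library totals ran from 22.03 M to 49.61 M (mega) counts. Chat (6.70 to 19.4 CPM) and Slc17a6 (135 to 264 CPM), 2 markers listed for dorsal vagal complex and hindbrain neurons, were present in every library. The summed CPM of the whole list ran from 283 in CAST/EiJ male control 3 to 1086, with a median of 861. It was 458 in NZO/HlLtJ male control 3. Hox genes mark hindbrain and spinal cord and are nearly silent in cerebellum and forebrain. The summed CPM of 22 of them was 1.14 in CAST/EiJ male control 1, 1.91 in CAST/EiJ male control 3 and 2.75 in NZO/HlLtJ male control 3. It ran from 20.3 to 361.4 in the other 33 libraries. These 3 libraries stood apart, so the counts of called members, the slopes on Hox reads and several strain and diet differences are given with and without them. The summed CPM of 12 cerebellar neuron markers ran from 126 to 2544, highest in CAST/EiJ male control 3. NZO/HlLtJ male control 1 held 17460 CPM of pituitary hormone transcripts, against at most 23.9 CPM in the other 35 libraries.

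The most abundant member per length of transcript was Kcnj10, an inward rectifier of astrocytes and oligodendrocytes, at 169 ± 33.7 CPM per kb of exon (SD, n = 36). The cytoplasmic beta subunit Kcnab2 stood at 79.9 ± 14.7 CPM per kb, and the axonal delayed rectifiers Kcna2 and Kcna1 at 65.7 ± 7.03 and 49.4 ± 9.74 CPM per kb. Within the other subfamilies the highest levels per length were those of Kcnk1 (38.6 ± 5.28 CPM per kb), a two-pore channel of weak inward rectification, and Kcnt1 (19.3 ± 4.35 CPM per kb), a sodium-activated channel. A few members held most of the summed level: the 10 highest made up 63.7% of the CPM per kb of all 86. There were 22 members above 10 CPM per kb, 39 from 1 to 10, and 25 under 1. The voltage-gated alpha subunits made up a median of 47.9% of the summed CPM per kb over libraries (44.4% to 51.7%), the inward rectifiers 25.1% (19.98% to 28.5%), the auxiliary subunits 16.6% (14.9% to 19.2%), the two-pore channels 6.85% (5.36% to 8.46%) and the calcium- and sodium-activated subunits 3.77% (2.97% to 6.16%).

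Other members of known roles covered a wide range of levels per length. Among voltage-gated subunits were Kcnc1 (40.0 ± 5.35 CPM per kb), a fast channel that allows high firing rates, and Kcnq3 (10.5 ± 1.56), a subunit of the M-current. Among inward rectifiers were Kcnj16 (24.4 ± 10.9), which pairs with Kcnj10 in glia, and the G protein-gated subunits Kcnj3 (15.4 ± 2.27), Kcnj9 (12.9 ± 2.75) and Kcnj6 (2.79 ± 0.567). The acid-sensitive two-pore channels Kcnk3 and Kcnk9 stood at 9.54 ± 1.60 and 2.00 ± 0.247 CPM per kb. Kcnn2, a small-conductance calcium-activated channel of the afterhyperpolarization, stood at 5.56 ± 1.12, and Kcnma1, the pore of the large-conductance calcium-activated channel, at 1.31 ± 0.373. Kcne2, a beta subunit that is abundant in the choroid plexus, was listed at 0 in NZO/HlLtJ male HFHS 3 and reached 23.3 CPM in C57BL/6J female HFHS 2. The summed CPM of 7 choroid plexus markers ran from 12.2 to 2966 over the same libraries, and its part in the level of Kcne2 was not tested.

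**Figure D1:**
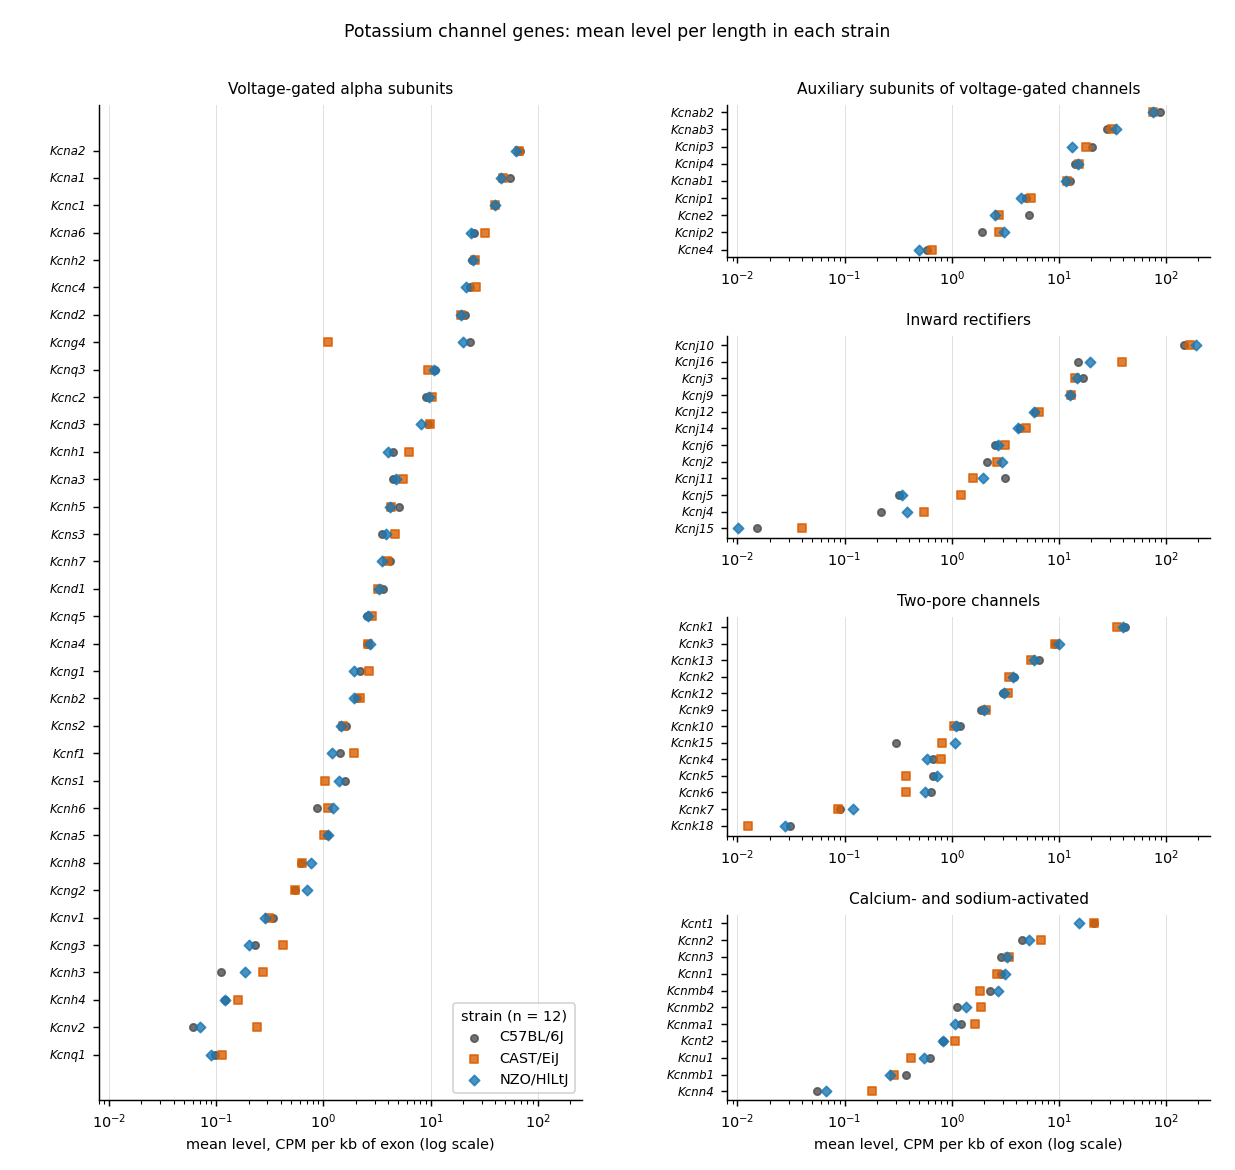
Mean level of 79 tested potassium channel genes in each strain (n = 12 libraries each), as CPM per kb of exon on a log axis, 1 panel per subfamily, genes ordered by their mean. The 3 strains lie close together for most genes, and Kcng4 lies far lower in CAST/EiJ (1.11 CPM per kb) than in C57BL/6J (23.6) or NZO/HlLtJ (19.997).

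Strain was the factor of the design with called differences among the members. CAST/EiJ differed from C57BL/6J in 42 of 83 members (26 higher, 16 lower) by edgeR's quasi-likelihood test at an adjusted p under 0.05, and 52.3% of all 20108 tested genes differed in that comparison (24.5% higher, 27.8% lower). NZO/HlLtJ differed from C57BL/6J in 20 members (11 higher, 9 lower), against 24% of all genes (11.7% higher, 12.3% lower). NZO/HlLtJ differed from CAST/EiJ in 34 members (11 higher, 23 lower), against 50.1% of all genes (27.3% higher, 22.8% lower). The members' shares, 50.6%, 24.1% and 41.0%, were thus near or below the background. Their median log2 difference was 0.09 for CAST/EiJ minus C57BL/6J (all genes -0.01), -0.06 for NZO/HlLtJ minus C57BL/6J (all genes 0.01) and -0.07 for NZO/HlLtJ minus CAST/EiJ (all genes 0.01). Without the 3 libraries that almost lacked Hox reads, 43, 25 and 36 members were called in the same order as the counts above. The shares of all genes called in that fit are not given here, so these counts are not a comparison with the background. The 3 comparisons share libraries. There were 32 members called in no strain comparison (38.6%), 13 in 1 (15.7%), 31 in 2 (37.3%) and 7 in all 3 (8.43%). Of all 20108 tested genes, 6737, 3096, 8508 and 1767 were called in 0, 1, 2 and 3 comparisons. Libraries of the compared strains did not overlap in CPM for 8, 3 and 3 members in the same order, against 12.6%, 3.68% and 10.5% of all genes. Whether reads of CAST/EiJ and NZO/HlLtJ were aligned to sequence adjusted for those strains is not given in the sources used here, and the part of sequence differences from the reference in these values was not tested.

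**Figure D2:**
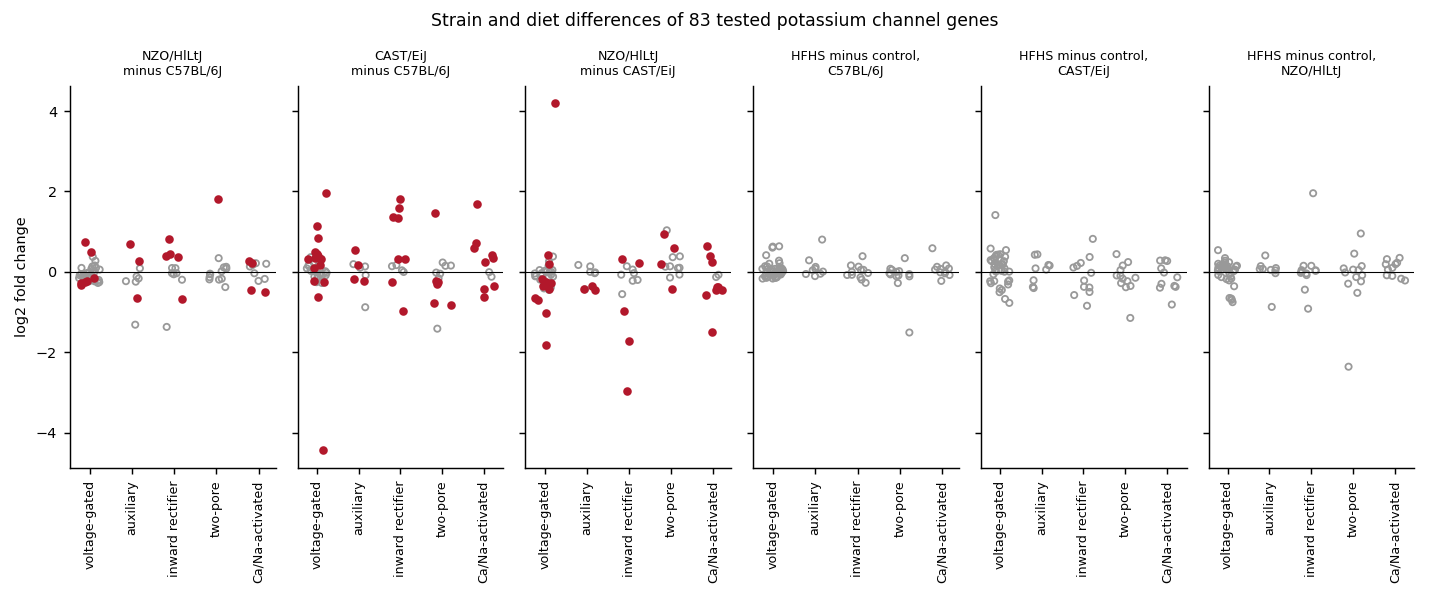
Log2 differences of the 83 tested members between strains (left 3 panels) and between HFHS and control diet within each strain (right 3 panels), by subfamily. Filled points passed an adjusted p of 0.05 by edgeR's quasi-likelihood test: 20, 42 and 34 members in the strain panels and none in the diet panels.

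Kcng4 showed the largest strain difference among members with an average of at least 1 CPM. It encodes a silent modifier subunit that forms channels only together with Kcnb subunits. Its level ran from 81.0 to 110.2 CPM (median 87.0) in the 12 C57BL/6J libraries, from 3.27 to 7.66 CPM (median 3.94) in the 12 CAST/EiJ libraries and from 49.8 to 90.05 CPM (median 81.1) in the 12 NZO/HlLtJ libraries. Every CAST/EiJ library lay below every library of the other strains. The log2 difference was -4.44 (SE 0.10, adjusted p = 2.33e-25 by edgeR's quasi-likelihood test) for CAST/EiJ minus C57BL/6J and 4.20 (SE 0.10, adjusted p = 1.22e-24) for NZO/HlLtJ minus CAST/EiJ. Without the 3 libraries that almost lacked Hox reads these were -4.54 and 4.35. NZO/HlLtJ minus C57BL/6J was -0.24 (SE 0.08, adjusted p = 0.0263), with overlapping libraries, and leaving out any 1 of 8 libraries lost that call (-0.23 to -0.19). Its partner Kcnb2 did not pass in CAST/EiJ minus C57BL/6J (0.09, SE 0.10, adjusted p = 0.488).

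Because of this difference, the reference sequence before the start of Kcng4 is shown, from RefSeq on build GRCm38.p6. It holds the 250 bases upstream of the gene at chr8:119635681-119635930 on the minus strand, 5′ to 3′. Capitals mark matches on either strand to 4 motifs: the TATA element TATAAA, the GC element GGGCGG, the E-box CACGTG and the CCAAT element. The reference is that of C57BL/6J, and the sequence of the other strains was not used here.
Kcng4: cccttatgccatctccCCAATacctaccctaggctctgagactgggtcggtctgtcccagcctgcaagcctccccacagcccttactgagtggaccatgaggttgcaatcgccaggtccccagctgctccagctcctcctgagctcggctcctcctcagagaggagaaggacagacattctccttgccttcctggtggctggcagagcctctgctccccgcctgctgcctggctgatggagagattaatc
There was 1 CCAAT match and no match to the other 3 motifs, which did not overlap each other. Of 32851 RefSeq windows of the same length, 33.8% held CCAAT, 12.4% TATAAA, 32.7% GGGCGG and 6.02% CACGTG. The window had 4 CpG dinucleotides, against a median of 6.

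Other voltage-gated subunits differed less. In CAST/EiJ minus C57BL/6J, 15 of 38 were called (11 higher, 4 lower), against 52.3% of all genes. Higher members included Kcnh1, a channel of the ether-a-go-go family, at 34.4 to 69.96 CPM (median 42.1) in CAST/EiJ against 24.7 to 38.0 (median 32.9) in C57BL/6J, a log2 difference of 0.50 (SE 0.07, adjusted p = 1.21e-06). NZO/HlLtJ libraries held 22.7 to 33.8 CPM of Kcnh1, below every CAST/EiJ library (-0.65, SE 0.07). Kcnf1, another silent subunit, was higher in CAST/EiJ by 0.44 (SE 0.11), and NZO/HlLtJ minus CAST/EiJ was -0.69 (SE 0.11). Kcnh3 was higher than in C57BL/6J in both CAST/EiJ (1.13, SE 0.25) and NZO/HlLtJ (0.74, SE 0.25), at medians of 0.531, 1.20 and 0.870 CPM in C57BL/6J, CAST/EiJ and NZO/HlLtJ; the NZO/HlLtJ call was lost without any 1 of 5 libraries (0.62 to 0.69). Kcnq3 was lower in CAST/EiJ, with a log2 difference of -0.22 (SE 0.07, adjusted p = 0.0126).

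In NZO/HlLtJ minus C57BL/6J, 7 of 38 voltage-gated subunits were called (2 higher, 5 lower), against 24% of all genes. The lower ones included Kcng4 and Kcna1 (-0.29, SE 0.10, adjusted p = 0.0409). The call of Kcna1 was lost when any 1 of 15 libraries was left out (-0.29 to -0.23). Kcnh6 was higher (0.50, SE 0.12, adjusted p = 0.00261), at 3.32 to 5.57 CPM against 1.66 to 4.08 CPM. Kcna2 and Kcnc1, abundant channels of fast-firing neurons, passed in no strain comparison: their log2 differences lay between -0.12 and 0.02, each with an SE of 0.06. In NZO/HlLtJ minus CAST/EiJ, 13 were called (3 higher, 10 lower), against 50.1% of all genes. Kcna6 was higher in CAST/EiJ than in C57BL/6J by 0.32 (SE 0.04), but 39.6% of its exon bases overlap an antisense gene, and strand use in counting is not given in the sources used here.

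Among auxiliary subunits, Kcnip3, a calcium-binding partner of Kcnd channels, stood out in NZO/HlLtJ. Its libraries held 33.9 to 55.8 CPM (median 47.3), against 60.5 to 80.2 (median 72.7) in C57BL/6J and 54.9 to 83.6 (median 62.0) in CAST/EiJ. All NZO/HlLtJ libraries lay below all C57BL/6J libraries, while NZO/HlLtJ and CAST/EiJ overlapped slightly. The log2 difference was -0.64 (SE 0.05, adjusted p = 5.96e-12) from C57BL/6J and -0.46 (SE 0.05, adjusted p = 2.43e-09) from CAST/EiJ. Its relative Kcnip2 was higher than in C57BL/6J in NZO/HlLtJ (0.71, SE 0.16) and in CAST/EiJ (0.53, SE 0.16). In all, 4 of 9 auxiliary subunits were called in CAST/EiJ minus C57BL/6J, 3 in NZO/HlLtJ minus C57BL/6J and 3 in NZO/HlLtJ minus CAST/EiJ, against 52.3%, 24% and 50.1% of all genes.

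Inward rectifiers were called for 8 of 12 members in CAST/EiJ minus C57BL/6J (6 higher, 2 lower), against 52.3% of all genes. Kcnj16, which forms glial channels with Kcnj10, ran from 102 to 190 CPM (median 150.3) in CAST/EiJ, from 52.3 to 69.5 (median 59.3) in C57BL/6J and from 67.6 to 90.6 (median 75.2) in NZO/HlLtJ. Every CAST/EiJ library exceeded every other library. The log2 difference from C57BL/6J was 1.34 (SE 0.06, adjusted p = 6.93e-17) in CAST/EiJ and 0.37 (SE 0.06, adjusted p = 3.93e-05) in NZO/HlLtJ (1.43 and 0.40 without the 3 libraries low in Hox reads). Kcnj10 itself followed another order, from 647 to 921 CPM (median 806) in C57BL/6J, from 461 to 1187 (median 942) in CAST/EiJ and from 834 to 1248 (median 1014) in NZO/HlLtJ. These ranges overlapped, and the difference from C57BL/6J passed in NZO/HlLtJ (0.40, SE 0.08, adjusted p = 0.000417) and missed in CAST/EiJ (0.17, SE 0.08, adjusted p = 0.0841). The lowest CAST/EiJ values of Kcnj10, 522 and 461 CPM, were those of CAST/EiJ male control 1 and 3, which almost lacked Hox reads. In control libraries the mean was 800 CPM in CAST/EiJ and 779 in C57BL/6J. In HFHS libraries, which include no library low in Hox reads, it was 1010 and 803. Of 8 astrocyte markers, 5 were called in CAST/EiJ minus C57BL/6J (4 higher, 1 lower; median 0.15) and 2 in NZO/HlLtJ minus C57BL/6J (both higher; median 0.12). Of 8 oligodendrocyte markers, 7 were lower in CAST/EiJ than in C57BL/6J (median -0.43). The share of all genes called was 52.3% in the CAST/EiJ comparison, of which 27.8% were lower, and 24% in the NZO/HlLtJ comparison. The part of cell content in the Kcnj10 and Kcnj16 differences was not tested.

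Kcnj11, the pore of the ATP-sensitive potassium channel that couples metabolism to excitability, was highest in C57BL/6J. It ran from 9.93 to 13.1 CPM (median 11.6) in that strain, from 4.26 to 7.54 (median 5.85) in CAST/EiJ and from 5.97 to 8.77 (median 7.26) in NZO/HlLtJ. No library of the other strains reached the C57BL/6J range. The log2 difference was -0.99 (SE 0.07, adjusted p = 9.15e-13) in CAST/EiJ and -0.67 (SE 0.07, adjusted p = 7.86e-09) in NZO/HlLtJ. Its sulfonylurea receptor subunit Abcc8 differed from C57BL/6J by -0.14 (SE 0.05, adjusted p = 0.0293) in CAST/EiJ and by 0.02 (SE 0.05, adjusted p = 0.831) in NZO/HlLtJ. Abcc9, the other receptor subunit and a marker of vessel mural cells, was lower in both (-0.51 and -0.54, each with an SE of 0.07).

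Kcnj5, a G protein-gated subunit, ran from 2.11 to 12.1 CPM (median 4.20) in CAST/EiJ, against 0.824 to 2.28 (median 1.56) in C57BL/6J and 0.665 to 4.15 (median 1.38) in NZO/HlLtJ. The highest values, 11.6 and 12.1 CPM, were those of CAST/EiJ male control 1 and 3, which almost lacked Hox reads, but the other CAST/EiJ libraries also lay mostly above the other strains. The log2 difference from C57BL/6J was 1.80 (SE 0.24, adjusted p = 2.21e-07), and 1.73 without the 3 libraries low in Hox reads. The other G protein-gated subunits moved less: Kcnj6 was higher in CAST/EiJ (0.32, SE 0.11), Kcnj3 was lower (-0.25, SE 0.08), and Kcnj9 did not pass (0.00, SE 0.11). An antisense gene overlaps 31.1% of the exon bases of Kcnj3. Kcnj2, a classical strong rectifier, was higher than in C57BL/6J in both CAST/EiJ (0.32, SE 0.08) and NZO/HlLtJ (0.46, SE 0.08).

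**Figure D3:**
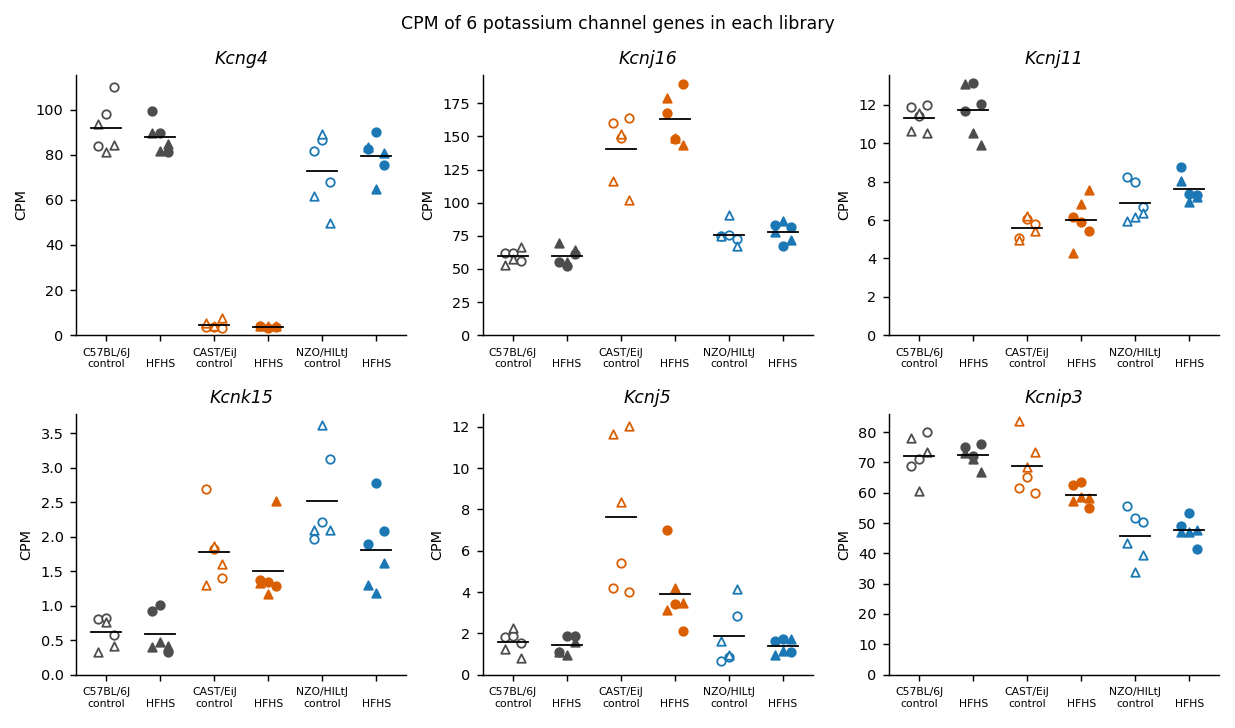
CPM of 6 members in every library, by strain and diet (open symbols control, filled HFHS; circles female, triangles male; bars mark the mean of 6). Kcng4 sits between 3.27 and 7.66 in CAST/EiJ and at 49.8 or above elsewhere, Kcnj16 is highest in CAST/EiJ, and Kcnj11 is highest in C57BL/6J.

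Two-pore channels were mostly lower in CAST/EiJ where they differed: 6 of 13 were called against C57BL/6J (1 higher, 5 lower), where 52.3% of all genes were called. Kcnk6 ran from 1.26 to 1.83 CPM (median 1.58) in CAST/EiJ and from 2.02 to 3.72 (median 2.44) in C57BL/6J, with no overlap and a log2 difference of -0.78 (SE 0.10, adjusted p = 2.15e-07). Kcnk5, an alkaline-sensitive leak channel, differed by -0.82 (SE 0.19, adjusted p = 0.000495), and the more abundant Kcnk1 by -0.24 (SE 0.06) and Kcnk13 by -0.31 (SE 0.09). The exception was Kcnk15, a relative of Kcnk3 and Kcnk9, which ran from 0.323 to 1.01 CPM (median 0.520) in C57BL/6J, from 1.17 to 2.69 (median 1.38) in CAST/EiJ and from 1.18 to 3.61 (median 2.08) in NZO/HlLtJ. Both other strains lay wholly above C57BL/6J, by 1.46 (SE 0.18, adjusted p = 6.31e-08) and 1.82 (SE 0.18, adjusted p = 2.44e-09). It was the 1 two-pore channel called in NZO/HlLtJ minus C57BL/6J. Kcnk3 and Kcnk9 passed in no strain comparison. For Kcnk13, the mean in control libraries was 14.6 CPM in CAST/EiJ and 20.4 in C57BL/6J. In HFHS libraries, which include no library low in Hox reads, it was 19.3 and 20.7. CAST/EiJ male control 1 and 3, which almost lacked Hox reads, held 11.8 and 8.27 CPM of Kcnk13.

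Calcium- and sodium-activated subunits were called for 9 of 11 members in CAST/EiJ minus C57BL/6J (6 higher, 3 lower), against 52.3% of all genes. Kcnn2 ran from 47.8 to 58.0 CPM (median 50.6) in CAST/EiJ and from 27.5 to 38.4 (median 33.9) in C57BL/6J, a log2 difference of 0.60 (SE 0.06, adjusted p = 2.82e-09). Kcnmb2, a beta subunit that inactivates large-conductance channels, ran from 4.603 to 7.27 CPM (median 5.70) against 2.97 to 4.45 (median 3.46), a difference of 0.72 (SE 0.07, adjusted p = 1.18e-09). Neither gene's CAST/EiJ range touched that of C57BL/6J, and the NZO/HlLtJ averages lay between (0.22, SE 0.06, and 0.28, SE 0.07, above C57BL/6J). Single NZO/HlLtJ libraries reached into both ranges of Kcnn2, with 31.8 CPM in male control 3 and 51.1 CPM in male control 2. Kcnma1, the pore that Kcnmb2 modifies, was higher in CAST/EiJ by 0.41 (SE 0.12, adjusted p = 0.00487). Kcnt1 was lower in NZO/HlLtJ than in both other strains by 0.45 (SE 0.07) on the log2 scale: its level ran from 101.4 to 189.9 CPM in NZO/HlLtJ, from 163 to 309 in CAST/EiJ and from 175 to 237 in C57BL/6J. Kcnmb4, a neuronal beta subunit, was lower in CAST/EiJ than in C57BL/6J (-0.43, SE 0.15) and than in NZO/HlLtJ, averaged over the diets. In HFHS libraries its means were 4.23 CPM in CAST/EiJ, 7.84 in C57BL/6J and 8.84 in NZO/HlLtJ. In control libraries they were 7.95, 7.45 and 9.15 in the same order. CAST/EiJ male control 1 and 3, which almost lacked Hox reads, held 11.8 and 11.7 CPM. Antisense genes overlap 10.7% and 20.8% of the exon bases of Kcnmb4.

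Genes whose products work with these channels, from lists drawn up for these channels, were counted in the same way. In CAST/EiJ minus C57BL/6J, 7 of 13 partners of voltage-gated channels were called (5 higher, 2 lower), among them Dpp6, a partner of Kcnd channels (0.20, SE 0.04), and Adam22, an axonal anchor (0.25, SE 0.05). For partners of ATP-sensitive and G protein-gated channels it was 4 of 12 (all lower), for partners of large- and small-conductance channels 3 of 8 (1 higher, 2 lower), for the HCN pacemaker channels 1 of 4 (Hcn3, higher) and for potassium pumps and cotransporters 5 of 11 (2 higher, 3 lower). In NZO/HlLtJ minus C57BL/6J the same lists gave 3 (all lower), 2 (1 higher, 1 lower), 1 (lower), 0 and 2 (both lower). All of these shares lie near or below the 52.3% and 24% of all genes.

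No member was called for diet. In NZO/HlLtJ 0 of 83 passed edgeR's quasi-likelihood test and 0.0547% of all genes were called. At an unadjusted p under 0.05 it was 10 members, or 12%, against 10.2% of all genes. In C57BL/6J 0 passed and 0% of all genes were called, with 1 member (1.20%) and 2.72% of all genes at an unadjusted p under 0.05. DESeq2 also called 0 members in these 2 strains. In CAST/EiJ 0 passed and 0.343% of all genes were called, with 34 members (41.0%) and 18.7% of all genes at an unadjusted p under 0.05. The median absolute log2 difference of the members was 0.08 in C57BL/6J (all genes 0.07), 0.13 in NZO/HlLtJ (all genes 0.10) and 0.27 in CAST/EiJ (all genes 0.13).

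The member nearest to the threshold was Kcng1, another silent subunit, in CAST/EiJ. It ran from 2.78 to 14.9 CPM (median 6.26) in 6 control libraries and from 14.96 to 18.8 CPM (median 17.5) in 6 HFHS libraries, which did not overlap (0.791% of all genes did not). The log2 difference was 1.41 (SE 0.33, adjusted p = 0.0510 by edgeR's quasi-likelihood test). Next came Kcnk3 (-0.35, SE 0.09, adjusted p = 0.0646) and Kcnmb4 (-0.81, SE 0.21, adjusted p = 0.0647), and Kcnj10 differed by 0.37 (SE 0.12, adjusted p = 0.0970). Hox content moved with diet in this strain: the summed Hox CPM was 1.14, 1.91, 61.5, 95.7, 114.7 and 244 in the 6 control libraries and 233 to 333 in the 6 HFHS libraries. With log2 Hox CPM in the model the median absolute difference of the members was 0.12 (all genes 0.09) and the difference of Kcng1 was 0.52. Without the 3 libraries that almost lacked Hox reads they were 0.20 (all genes 0.10) and 1.09. The summed cerebellar markers ran from 135 to 2544 CPM (median 928) in the control libraries and from 139 to 838 CPM (median 277) in the HFHS libraries. Of the 11 lists of marker genes of cell types, 2 had summed levels that did not overlap between the diets. The sum of 6 red blood cell genes ran from 655 to 2540 CPM (median 1777) in the control libraries and from 210 to 385 CPM (median 276) in the HFHS libraries, and 5 of the 6 were called lower. The sum of 8 pan-neuronal genes ran from 4439 to 6788 CPM (median 6432) and from 6864 to 7342 CPM (median 7038), with 0 of 8 called. The part of tissue content in the diet differences beyond these fits was not tested.

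The count of 0 in CAST/EiJ was sensitive to the method. DESeq2 called 9 members (5 higher, 4 lower), among them Kcng1, Kcnmb4 and Kcnk3, which is 10.8% of the members against 3.74% of all genes. Without CAST/EiJ male control 2, which leaves the 2 libraries that almost lacked Hox reads as the only male controls of that strain, 22 members were called, or 26.5% against 9.80% of all genes. In NZO/HlLtJ, Kcnt1 was called with log2 Hox CPM in the model (0.35, adjusted p = 0.0485), where 0.358% of all genes were called, and 1 member was called without NZO/HlLtJ male control 2 (0.483% of all genes). The strain-by-diet interaction, which the series title names, was called for 0 members and 0% of all genes (smallest adjusted p of a member 0.432, for Kcnk10). At an unadjusted p under 0.05 it was 8 members, or 9.64%, against 8.81% of all genes. DESeq2's likelihood ratio test called 0 as well. Sex was called for 0 members, also by DESeq2, and for 0.0796% of all genes. At an unadjusted p under 0.05 it was 4 members, or 4.82%, against 5.17% of all genes.

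The levels were then set against the summed Hox CPM within the 12 groups of strain, sex and diet. A slope is the log2 change of a gene per doubling of Hox CPM. It was called for 30 of 83 members (17 positive, 13 negative), which is 36.1% of the members, against 18.2% of all genes (9.38% positive, 8.79% negative). Called members were 12 of 38 voltage-gated subunits (8 positive, 4 negative), 5 of 9 auxiliary subunits (3 positive, 2 negative), 7 of 12 inward rectifiers (4 positive, 3 negative), 3 of 13 two-pore channels (1 positive, 2 negative) and 3 of 11 calcium- and sodium-activated subunits (1 positive, 2 negative). Without the 3 libraries under 10 Hox CPM, 12 of 83 members were called, or 14.5% against 6.44% of all genes, and all 12 were among the 30. Of the 30, 29 kept their sign. The exception was Kcnip1, which went from -0.07 to 0.02.

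Other markers moved along the same axis. Of 12 cerebellar markers, 11 had called negative slopes (median of the 12 -0.46). Of 8 myelin markers all 8 had called positive slopes (median 0.09), and of 15 tested dorsal vagal markers 11 were called (8 positive, 3 negative). When the 3 libraries low in Hox reads were left out, 9 cerebellar markers (all negative, median -0.70), 2 myelin markers (both positive, median 0.08) and 5 dorsal vagal markers (2 positive, 3 negative) were called. The part of these cell types in the slopes of the members was not tested.

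Positive slopes were led by Kcnj14, an inward rectifier of hindbrain motor neurons, at 0.33 (SE 0.05, adjusted p = 3.79e-05 by edgeR's quasi-likelihood test). It held 3.80, 2.93 and 4.21 CPM in CAST/EiJ male control 1, CAST/EiJ male control 3 and NZO/HlLtJ male control 3, and 5.46 to 19.6 CPM (median 13.3) in the other 33 libraries. All 3 lay below all others. Without them the slope was 0.23 (SE 0.08, adjusted p = 0.0848), and in the CAST/EiJ libraries of at least 10 Hox CPM alone it was -0.0383 (SE 0.19, adjusted p = 0.984). Kcng1 had a slope of 0.29 (SE 0.06, adjusted p = 0.000464), which was 0.54 (SE 0.07, adjusted p = 1.61e-05) without the 3 libraries. It held 3.05, 2.78 and 4.78 CPM in them and 2.80 to 18.8 CPM (median 11.3) in the others, so 2 of the 3 lay within the range of the others. It was the 1 member called within C57BL/6J alone (0.51, SE 0.06, adjusted p = 0.00138).

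Further positive slopes belonged to Kcns3 (0.14, SE 0.03), a silent subunit, the axonal Kcna1 (0.13, SE 0.02) and its beta subunit Kcnab2 (0.13, SE 0.02), Kcnh2 (0.12, SE 0.02), a slow voltage-gated channel, and Kcnj10 (0.11, SE 0.02). Kcna1 held 126 to 145 CPM in the 3 libraries low in Hox reads and 173 to 309.5 CPM (median 241) in the others, with no overlap. Kcnab2 held 217 to 321 CPM against 331 to 598, and Kcnh2 76.7 to 87.8 against 93.4 to 153, also without overlap. Without the 3 libraries, the slope of Kcna1 missed the threshold (0.08, adjusted p = 0.289), while those of Kcnab2 (0.11, adjusted p = 0.0187), Kcnh2 (0.11, adjusted p = 0.0102) and Kcns3 (0.16, adjusted p = 0.0407) passed.

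Negative slopes were led by Kcnj5 (-0.23, SE 0.06), Kcnj12 (-0.18, SE 0.04), a strong rectifier, the transient channel Kcnd3 (-0.15, SE 0.02) and Kcna3 (-0.15, SE 0.04). Kcnd3 held 147, 127 and 137 CPM in the 3 libraries low in Hox reads and 53.4 to 116.7 CPM (median 84.8) in the others. Its accessory subunit Kcnip4 (-0.10, SE 0.02) held 80.7, 81.5 and 66.5 CPM against 35.8 to 64.8 CPM. For both genes all 3 libraries exceeded all others. Further members were Kcnj9 (-0.13, SE 0.02), Kcnmb4 (-0.13, SE 0.04) and Kcnt1 (-0.09, SE 0.02). Without the 3 libraries the slopes of Kcnd3 (-0.16, adjusted p = 0.00171), Kcnj12 (-0.21, adjusted p = 0.0301), Kcnj9 (-0.15, adjusted p = 0.00755) and Kcnmb4 (-0.26, adjusted p = 0.0138) passed. Those of Kcnj5 (-0.33, adjusted p = 0.0668), Kcna3 (-0.14, adjusted p = 0.286), Kcnip4 (-0.09, adjusted p = 0.0928) and Kcnt1 (-0.07, adjusted p = 0.126) did not. Leaving out NZO/HlLtJ male control 3 alone also lost the calls of Kcnj5 (-0.19, adjusted p = 0.0746) and Kcna3 (-0.11, adjusted p = 0.148). The call of Kcnmb4 was lost without any 1 of 6 libraries (-0.15 to -0.11).

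**Figure D4:**
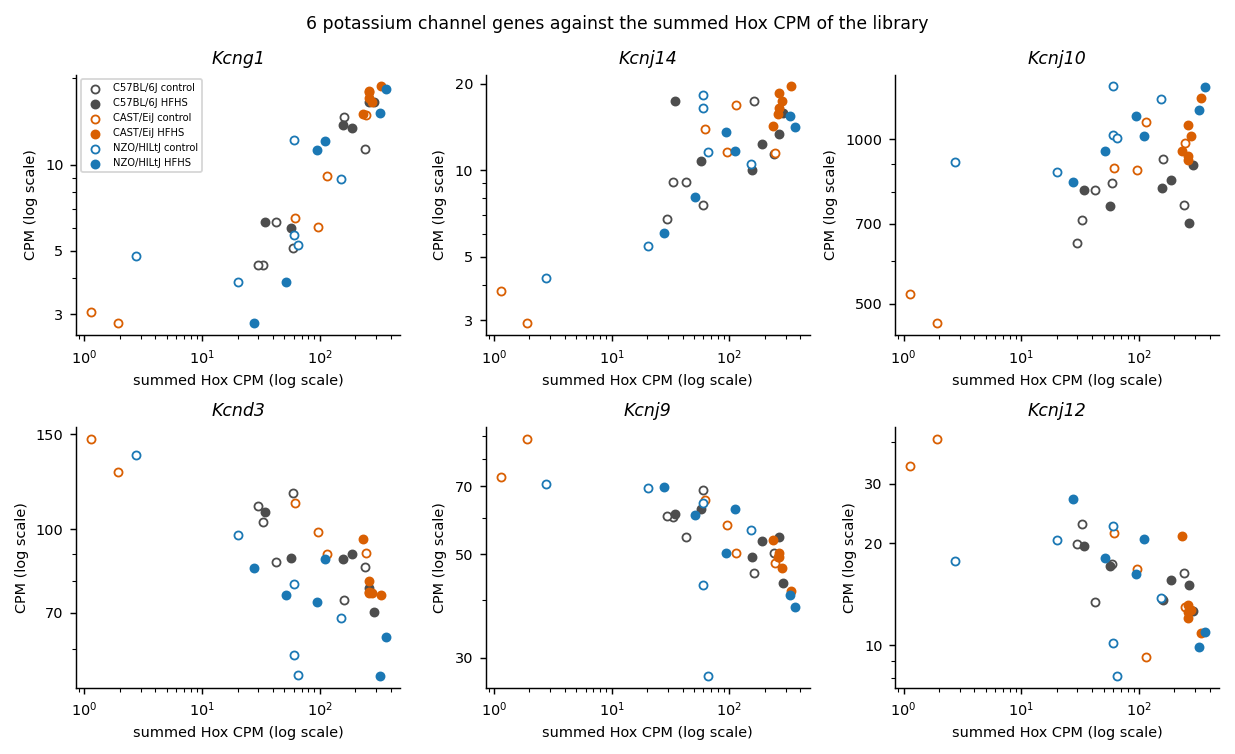
CPM of 6 members against the summed Hox CPM of each library, both on log axes, by strain (colour) and diet (open control, filled HFHS). The 3 leftmost points are the libraries at 1.14, 1.91 and 2.75 Hox CPM. Kcng1, Kcnj14 and Kcnj10 rise from left to right and Kcnd3, Kcnj9 and Kcnj12 fall.

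**Figure D5:**
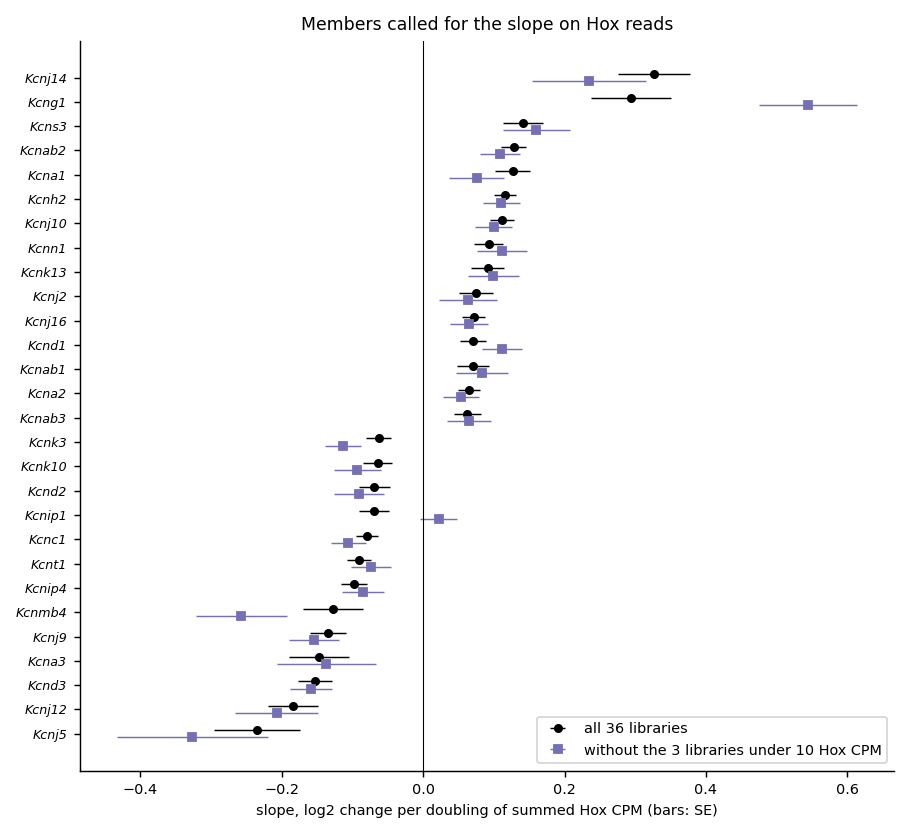
Slopes of 28 of the 30 members called over 36 libraries (circles) and the same slopes without the 3 libraries under 10 Hox CPM (squares), with standard errors. Kcng1 is steeper without them (0.54 against 0.29) and Kcnip1 is the 1 gene on the other side of 0.

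Kcnj9 and Kcnj10 are neighbours on chromosome 1 and are transcribed away from each other from starts 11.9 kb apart, with slopes of opposite sign. Kcnj9 held 73.5, 88.7 and 70.9 CPM in the 3 libraries low in Hox reads (in the order CAST/EiJ male control 1, CAST/EiJ male control 3, NZO/HlLtJ male control 3), all above the 27.4 to 69.7 CPM of the others. Kcnj10 held 522, 461 and 906 CPM against 647 to 1248 CPM, so 2 of the 3 lay below all others. Kcnj9 is a neuronal G protein-gated subunit and Kcnj10 a glial rectifier. The slope of Kcnj10 without the 3 libraries was 0.10 (SE 0.03, adjusted p = 0.0191).

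The 250 bases before the start of each are shown to let the 2 neighbours be compared (RefSeq, GRCm38.p6). The window of Kcnj9 is chr1:172329323-172329572 on the minus strand and that of Kcnj10 is chr1:172340960-172341209 on the plus strand. Capitals mark matches to the 4 motifs searched for Kcng4, on either strand.
Kcnj9: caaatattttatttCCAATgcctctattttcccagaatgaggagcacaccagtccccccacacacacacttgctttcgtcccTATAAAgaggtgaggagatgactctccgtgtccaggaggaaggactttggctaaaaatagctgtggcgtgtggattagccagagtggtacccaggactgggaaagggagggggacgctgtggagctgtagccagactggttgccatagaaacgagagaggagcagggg
Kcnj10: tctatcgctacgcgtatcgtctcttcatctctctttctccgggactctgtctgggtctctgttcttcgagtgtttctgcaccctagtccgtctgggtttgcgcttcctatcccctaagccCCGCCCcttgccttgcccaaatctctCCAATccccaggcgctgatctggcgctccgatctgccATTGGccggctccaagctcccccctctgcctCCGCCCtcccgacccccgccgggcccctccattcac
The Kcnj9 window held 1 TATAAA and 1 CCAAT match and 5 CpG dinucleotides. The Kcnj10 window held 2 GGGCGG matches (printed as their reverse complement), 2 CCAAT matches (1 as its reverse complement) and 17 CpG dinucleotides. No motif of the list overlapped another in either window. GC content was 52.0% and 62.0%, against a median of 52.4% over all windows.

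Among the partner lists, slopes were called for 5 of 13 partners of voltage-gated channels (2 positive, 3 negative), 5 of 12 partners of ATP-sensitive and G protein-gated channels (1 positive, 4 negative), 4 of 8 partners of large- and small-conductance channels (3 positive, 1 negative), 2 of 4 HCN channels (1 positive, 1 negative) and 7 of 11 potassium pumps and cotransporters (6 positive, 1 negative). The GABA-B receptor subunits Gabbr1 and Gabbr2, which act through Kcnj3, Kcnj6 and Kcnj9, had slopes of -0.06 (SE 0.01) and -0.07 (SE 0.01). The pacemaker channel Hcn2 had a slope of 0.09 (SE 0.02). The background of 18.2% holds for these counts too. When the 3 libraries low in Hox reads were left out, 0 of 13, 1 of 12 (negative), 1 of 8 (negative), 1 of 4 (negative) and 0 of 11 genes of these lists were called in the same order, against 6.44% of all genes. Gabbr2 still passed (-0.07, SE 0.02, adjusted p = 0.0438 by edgeR's quasi-likelihood test), while Gabbr1 (-0.04, SE 0.02, adjusted p = 0.209) and Hcn2 (0.07, SE 0.04, adjusted p = 0.348) did not.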

How the data were processed

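Poly(A) RNA of the dorsal vagal complex had been sequenced as 100 bp read pairs to a target of 30 M pairs per library, per the labels' protocols. The authors deposited expected counts per gene for 36 libraries (18.7% to 22.7% of values per library were not whole, tolerance 1e-06) and a table of variance-stabilized log2 values. The submitters' processing notes name GRCm38 and DESeq2; for the aligner, the counter and their settings, the sources used here name nothing. Expected counts were rounded and tested with edgeR 4.0.16 (R 4.3.3): genes passed edgeR's filter on low counts (minimum count 10, minimum total 15), 20108 in all, TMM scaling factors ran from 0.959 to 1.04, and 12 group means of strain, sex and diet were fitted in 1 model with 24 residual degrees of freedom. The common biological coefficient of variation was 0.163. Contrasts averaged over the remaining factors, tests used glmQLFit and glmQLFTest, and p-values were adjusted by Benjamini-Hochberg over all tested genes, with calls at 0.05. The Hox slope added log2 summed Hox CPM as a term (23 residual degrees of freedom). Standard errors are the size of the log2 fold change divided by the square root of F. CPM per kb is CPM over the length of the union of exons in gencode annotation of GRCm38.

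DESeq2 1.42.0 on the rounded counts and limma 3.58.1 on the deposited log2 values were alternatives, as were RLE scaling, no filter, leaving out libraries, Hox CPM as a term and fits within a strain. The fits were also tested on simulated data, which used the library sizes, the Hox values and the common coefficient of variation of these data. Promoter windows were found for 61 of 86 members in RefSeq. The members, the gene lists and the tests were chosen with earlier results of these data known, and the 3 promoters printed were chosen after the values had been seen. Named genes were the largest called rises and falls per comparison (8 each way, average log2 CPM at least 0), the 3 highest per length in each subfamily, a fixed set of well-known channels and those under the filter, less some genes that are counted but not reported by name here or drawn with a label. Kcnb2, Kcnip1, Kcna6, Kcne2 and Kcnk10 were named for their role or position after their values were seen.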

Additional observations from a re-analysis of the deposited data

Results flagged for a closer look

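The lowest and highest library of each group of 6 (strain and diet) was compared with its nearest neighbour, for 46 named members in 276 groups. A gap large against the range of the group (Dixon's test at 95%) was found in 11 groups, or 3.99%, where chance gives about 1 in 20. In 4 of them CAST/EiJ female HFHS 1 was the highest of the CAST/EiJ HFHS libraries: Kcnd3 at 96.0 CPM (next 80.2), Kcnh1 at 51.5 CPM (next 41.9), Kcnip4 at 58.1 CPM (next 49.0) and Kcnj12 at 21.0 CPM (next 13.2). That library also held the most cerebellar marker reads of its group (838 CPM, group median 277) and the fewest Hox reads of its group (233 CPM). In 3 groups NZO/HlLtJ male control 2 was the highest of the NZO/HlLtJ control libraries, with Kcnab3 at 122.7 CPM (next 94.1), Kcnj16 at 90.6 CPM (next 75.4) and Kcnn2 at 51.1 CPM (next 37.8). In CAST/EiJ male HFHS 3, Kcnk15 was highest of its group at 2.52 CPM (next 1.37) and Kcnk9 lowest at 22.01 CPM (next 25.3). Kcnh6 reached 5.66 CPM in CAST/EiJ female HFHS 2 (next 4.15), and Kcnq3 208 CPM in NZO/HlLtJ male HFHS 2 (next 170.1).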

How the results depend on the processing

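The counts of called members for the 3 strain comparisons moved by less than 1.5 times under every alternative run, with ranges of 15 to 25 (NZO/HlLtJ minus C57BL/6J), 39 to 45 (CAST/EiJ minus C57BL/6J) and 32 to 37 (NZO/HlLtJ minus CAST/EiJ) on leaving out each library. Diet in C57BL/6J, strain by diet and sex gave 0 called members throughout. Diet in NZO/HlLtJ gave 1 with log2 Hox CPM as a covariate, and 0 to 1 on leaving out each library. Diet in CAST/EiJ gave 9 with DESeq2, 1 with RLE size factors, 3 with limma on the deposited values and 3 with only the CAST/EiJ libraries. On leaving out each library it gave 0 to 22: the count was 22 when CAST/EiJ male control 2 was absent, 7 for NZO/HlLtJ male control 3, 5 for CAST/EiJ female HFHS 1, 3 for NZO/HlLtJ male HFHS 3 and at most 2 for any other. The Hox slope gave 12 called members without the 3 libraries almost lacking Hox reads, 11 with Hox CPM itself in place of its log2, and 12, 15 and 1 with only NZO/HlLtJ, CAST/EiJ or C57BL/6J libraries, against 30. With only the NZO/HlLtJ or CAST/EiJ libraries of at least 10 Hox CPM, an alternative chosen after seeing the data, it gave 0 and 1; these fits hold fewer libraries. On leaving out each library it gave 21 to 33. The counts in this paragraph are given without the share of all genes called in the same run. That share also moved between runs, as given above for DESeq2, without CAST/EiJ male control 2 and for the Hox slope. The counts therefore do not show how far the members moved apart from other genes. With only the CAST/EiJ libraries of at least 10 Hox CPM the Hox slope of Kcnj14 was -0.0383 (reversed against 0.33); the cause was not tested. The call of Kcnmb1 in CAST/EiJ minus C57BL/6J was lost without any 1 of 29 libraries. No paired analysis was possible because the labels give no replicate numbers that the groups share. Low counts limit Kcna7, Kcna10 and Kcne1, which were not tested.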
